A study of Mus musculus with 5 samples.

Results

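The Bcl2 family genes described here are the 10 rows of the deposited table that carry the names BCL2, BCL2L1, MCL1, BCL2A1B, BCL2A1D, BCL2L11, BBC3, PMAIP1, BAX and BAK1, out of 38924 genes in all. They were chosen by name, as genes that hold back or drive the mitochondrial route to cell death. The mice were 12 weeks old and had received sheep red blood cells 7 days earlier; their germinal center B cells were sorted from the spleen and are described by the submitters as eGFP+. The DKO group (2 libraries) has the genotype relbfl/flnfkb2fl/flCg1-Cre, with both Relb and Nfkb2 floxed. The WT group (3 libraries) is made of Cg1-Cre littermates, so both groups carry the Cre. Cg1-Cre is expressed from the IgG1 constant region locus, and it deletes floxed alleles in B cells that transcribe this locus, around germinal center entry. No source used here states what drives eGFP. The labels do not say that each library came from its own mouse, so p-values measure the spread between these libraries, which may in part be technical.

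Proteins of the Bcl2 family decide whether the outer membrane of the mitochondrion stays closed. Bcl2, Bcl-xL (from Bcl2l1), Mcl1 and A1 (from the Bcl2a1 genes) hold the effectors Bax and Bak in check, and BH3-only proteins such as Bim (from Bcl2l11), Puma (from Bbc3) and Noxa (from Pmaip1) bind the survival proteins or the effectors and tip the balance towards death. Germinal center B cells are known for low Bcl2 and for their need of Mcl1 in the mouse, while naive B cells and T cells express more Bcl2. NF-κB factors are known to act on several of the survival genes, Bcl2a1 and Bcl2l1 among them. The comparison of DKO with WT asks how these transcripts differ where Relb and Nfkb2 are targeted.

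The stretch that ties the family together is the BH3 region, and its coding sequence is shown because members with opposite roles share this core. The core was searched in the translated main GENCODE M21 transcript as leucine, 3 residues, glycine or alanine, then aspartate. A match was found in 8 of 10 members, and the core codons are in capitals below, each with 6 coding bases on either side. Pmaip1 held 2 matches and is not printed.
Bcl2: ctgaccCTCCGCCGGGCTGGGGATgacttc
Bcl2l1: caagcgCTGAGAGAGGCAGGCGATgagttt
Mcl1: gagaccCTGCGGCGCGTGGGCGACggcgtg
Bcl2l11: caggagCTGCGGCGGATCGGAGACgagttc
Bbc3: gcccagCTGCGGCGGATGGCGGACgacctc
Bax: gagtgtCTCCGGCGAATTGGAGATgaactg
Bak1: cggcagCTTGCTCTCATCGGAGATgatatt
These letters were not found in Bcl2a1b or Bcl2a1d, which says only that this spelling of the core is missing from their translated sequence.

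The Bcl2a1 genes need a second look at sequence, because it limits how their counts can be read. Mice have several Bcl2a1 copies on chromosome 9, and the coding sequences of Bcl2a1b and Bcl2a1d differ at 6 of 516 bases (98.8% identity). Bcl2a1a differs from Bcl2a1d at 7 bases and from Bcl2a1b at 11. The first 120 coding bases hold 7 positions at which the 3 copies are not all alike, in capitals here.
Bcl2a1a: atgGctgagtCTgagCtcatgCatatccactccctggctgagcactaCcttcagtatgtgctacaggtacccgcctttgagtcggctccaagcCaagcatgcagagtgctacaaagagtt
Bcl2a1b: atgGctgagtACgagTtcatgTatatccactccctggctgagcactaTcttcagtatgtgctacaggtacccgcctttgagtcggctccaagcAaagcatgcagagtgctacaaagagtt
Bcl2a1d: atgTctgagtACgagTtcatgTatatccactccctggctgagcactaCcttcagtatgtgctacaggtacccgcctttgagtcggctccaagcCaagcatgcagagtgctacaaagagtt
Of all windows of 50 bases, the length of a sequenced read, 79.2% of those in the Bcl2a1b transcript and 79.5% of those in the Bcl2a1d transcript also occurred in a transcript of another gene. How the authors counted such reads is not stated, so the split between the copies, and their total, are uncertain. Gm29094, a gene model that overlaps Bcl2a1b on the same strand, held 46.0% of the Bcl2a1b windows and 23.0% of those of Bcl2a1d.

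**Figure D1:**
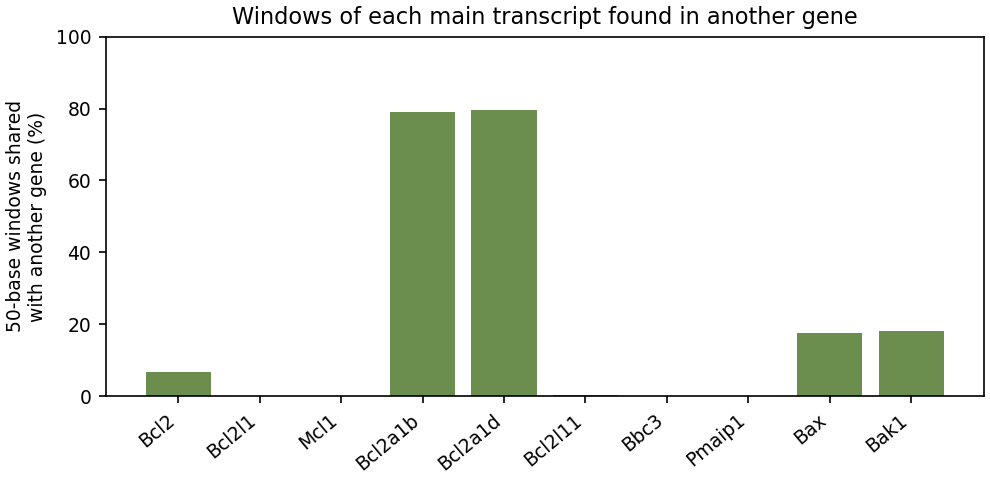
Share of the 50-base windows of each member's main GENCODE M21 transcript that also occur, on either strand, in a transcript of another gene (percent). The Bcl2a1b and Bcl2a1d bars stand at 79.2% and 79.5%, while Bcl2l1, Mcl1, Bbc3 and Pmaip1 share no window.

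Of the other members, Bcl2l1, Mcl1, Bbc3 and Pmaip1 shared no window with another gene and Bcl2l11 shared 0.22%. In Bcl2 the share was 6.75%, of which the opposite-strand gene D630008O14Rik accounted for nearly all (6.47%). Bax shared 17.6% with Gm45808, a gene model that overlaps it on the same strand, and Bak1 shared 18.2% with Ggnbp1 on the opposite strand. Whether the counting used strand is not stated either. Ggnbp1 had between 54.6 and 108 normalized counts and D630008O14Rik between 1.07 and 33.3, both well below their partners Bak1 and Bcl2.

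Whole reads could be recovered from the table, and library totals ran from 33953377 to 57582464 reads, of which mitochondrial ribosomal RNA took 47.0% to 70.9%. The libraries carried germinal center B cell transcripts as labelled: 11 of 12 markers were detected in each of the 5 libraries, with Mef2b listed at 0 throughout. Relb measured 136, 171 and 117 normalized counts across the WT libraries versus 56.9 and 10.7 across the DKO libraries, and Nfkb2 measured 657, 601 and 445 across WT versus 298 and 73.5 across DKO. DKO replicate 1 therefore kept 40.2% of the mean WT Relb level and DKO replicate 2 kept 7.59%. Of the mean WT Nfkb2 level they kept 52.5% and 13.0%. These counts cover the whole gene, not the deleted part. T cell markers summed to between 89.4 and 1204 normalized counts over the 5 libraries and were highest in WT replicate 2 and DKO replicate 1, as were naive B cell markers.

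No Bcl2 family member passed the test for a difference between DKO and WT against the spread between libraries. In 9 of 10 members the mean was at least 10 normalized counts and the gene was tested, Bbc3 being the exception. No member passed limma's test over the 13242 genes tested, and 0% of all genes did; the members' adjusted p ran from 0.891 for Bax to 0.978 for Pmaip1. At an unadjusted p under 0.05 the count was 0 of 9, where 6.06% of all genes tested passed. The log2 fold change was negative in 6 of 9 members and positive in 3, beside 6615 of the 13242 genes tested, and the median was −0.17 against 0.00 for all genes. EdgeR on the recovered reads called 0 genes and placed 748 at an unadjusted p under 0.05, while DESeq2 called 29 genes. No member was among the 29. The smallest unadjusted p of a member was that of Bax in both tools (0.314 in edgeR and 0.330 in DESeq2). Even the targeted genes missed the adjusted threshold in limma. Relb stood at −2.43 on the log2 scale (limma, unadjusted p = 0.00401, adjusted p = 0.823). Nfkb2 stood at −1.91 (limma, unadjusted p = 0.00451, adjusted p = 0.823). Missing that threshold therefore does not show that a member is unchanged.

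**Figure D2:**
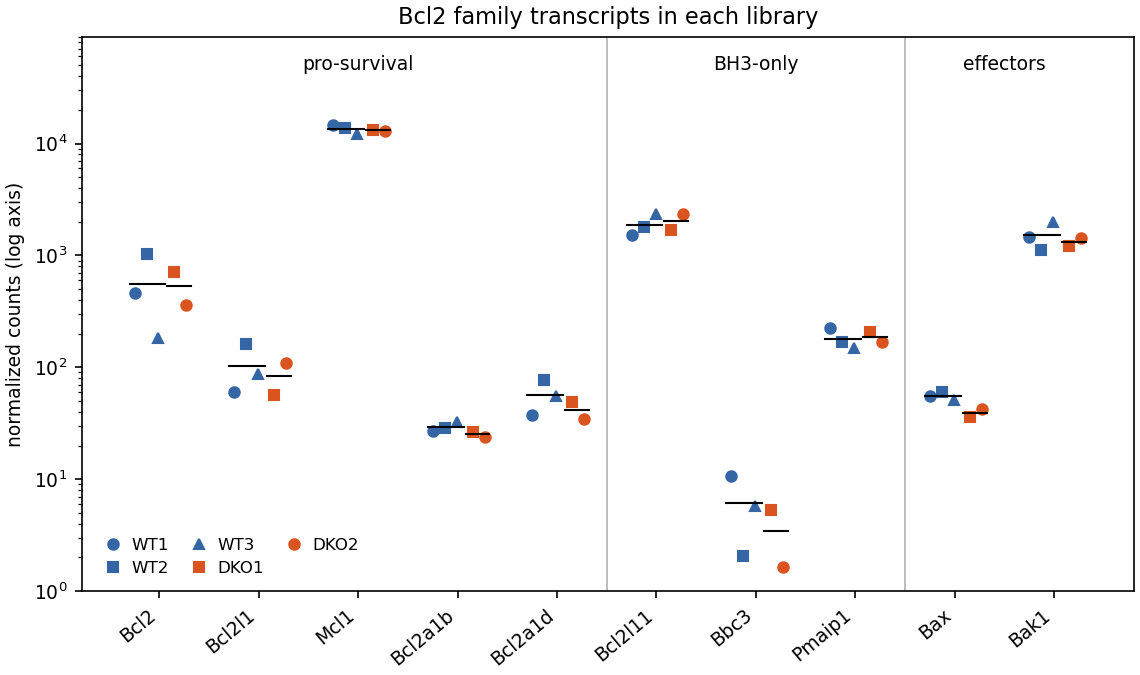
Normalized counts (log axis) of the 10 Bcl2 family genes in each of the 3 WT and 2 DKO libraries, with the group means as black lines. Mcl1 lies between 12257 and 14493 in all libraries, Bcl2 spreads from 185 to 1027, and Bax and Bcl2a1b are the members whose DKO points both lie below the WT points.

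Mcl1, the survival protein on which mouse germinal center B cells depend, was by far the most abundant survival transcript and the steadiest member of the family. It measured 14493, 13825 and 12257 normalized counts across the WT libraries versus 13287 and 12904 across the DKO libraries. The groups overlapped, and the highest library was 1.18 times the lowest. On the log2 scale DKO differed from WT by −0.04 ± 0.20 (limma, SE; adjusted p = 0.975). Its 95% interval, from −0.50 to 0.42, corresponds to a DKO level between 70.6% and 133% of WT, the narrowest interval among the members. Quantile scaling (0.01) or leaving out WT replicate 1 (0.01) turned the sign of so small a difference.

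Bcl2, which gave the family its name, varied more between libraries of the same genotype than between genotypes. It measured 460, 1027 and 185 normalized counts across the WT libraries versus 714 and 360 across the DKO libraries. Among the WT libraries alone the highest library was 5.56 times the lowest, and both DKO libraries fell inside that range. Reads per library numbered between 192 and 995, so that counting alone would give a coefficient of variation of 4.18% at the mean read number, while the WT libraries had 77.1%. The group means were 557 ± 429 (SD, n = 3) and 537 ± 250 (n = 2), and the log2 fold change of 0.19 ± 0.61 (adjusted p = 0.969, limma) had a 95% interval from −1.20 to 1.58. The sign depended on the libraries and the tool, from −0.44 without WT replicate 3 and −0.30 without DKO replicate 1 to 0.80 without WT replicate 2, and it was −0.07 in edgeR and −0.06 in DESeq2.

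The libraries with most Bcl2 were those with most T cell and naive B cell transcripts. The 12 T cell markers summed to 1204 normalized counts in WT replicate 2 and 618 in DKO replicate 1, against 125 and 89.4 in WT replicates 1 and 3 and 166 in DKO replicate 2. All 12 were detected in WT replicate 2 and in DKO replicate 1, and 10 or 11 in the others. The naive B cell markers, 9 of 10 of them in the table and all detected in each library, summed to 29516 and 26362 in WT replicate 2 and DKO replicate 1 and to between 11238 and 17026 in the other 3 libraries. WT replicate 3, which had the least Bcl2, also had the lowest T cell sum but not the lowest naive B cell sum. Natural killer cell markers summed to 35.3, 270 and 3.84 in WT and 55.2 and 19.8 in DKO, the same order as Bcl2. Myeloid markers summed to 1470, 1153 and 336 in WT and 1454 and 723 in DKO. Single markers did not all follow their sums: Il4ra (naive B) was highest in WT replicate 3 (2951), and Cd5 (T cell) was lowest in DKO replicate 1 (13.1). A fit that adjusts for the mean log2(value + 1) of the T cell markers, rather than their sum, gave Bcl2 a log2 fold change of 0.05 ± 0.34. With the same mean over naive B cell markers it was 0.18 ± 0.44. In bulk RNA of sorted cells, more cells of another type and more Bcl2 RNA per cell cannot be told apart. The part of these cells in the Bcl2 level was not tested.

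**Figure D3:**
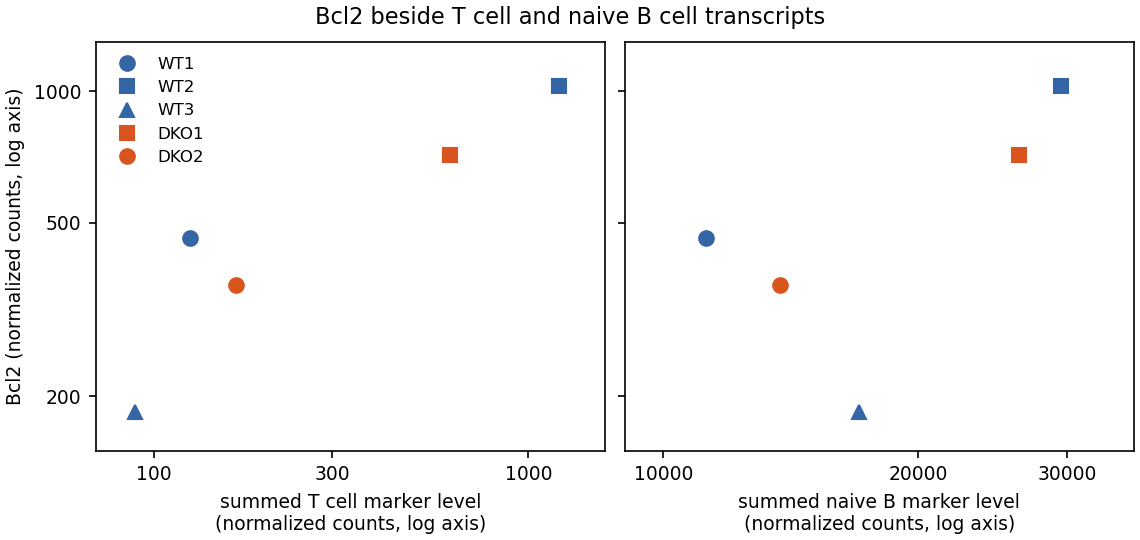
Bcl2 level against the summed level of 12 T cell markers (left) and of the naive B cell markers (right), in normalized counts on log axes, 1 point per library. WT replicate 2 and DKO replicate 1 are the highest of the 5 libraries on every axis.

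Bcl2l1, the gene of Bcl-xL, was a weak transcript, measuring 60.0, 163 and 87.4 normalized counts across the WT libraries versus 56.9 and 109 across the DKO libraries. WT replicate 2 was the highest library, and the groups overlapped. On the log2 scale DKO differed from WT by −0.27 ± 0.51 (limma, adjusted p = 0.948), and it was positive without WT replicate 2 (0.12) or without DKO replicate 1 (0.20). Between 56 and 158 reads per library lay behind these values.

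Of the A1 genes, Bcl2a1b measured 26.8, 28.9 and 32.7 normalized counts across the WT libraries versus 26.3 and 24.0 across the DKO libraries. Both DKO values lay below all WT values, yet the 25 to 34 reads per library carry a counting coefficient of variation of 18.5%, larger than the 10.2% seen between the WT libraries. On the log2 scale DKO differed from WT by −0.22 ± 0.55 (limma, adjusted p = 0.961). Bcl2a1d measured 37.5, 76.4 and 55.7 across the WT libraries versus 49.0 and 34.7 across the DKO libraries, which overlap, and limma gave a log2 fold change of −0.39 ± 0.49 (adjusted p = 0.917). The near-identical Bcl2a1a had 1 to 4 reads in 4 libraries and 14 reads in DKO replicate 1. A sum over the 3 copies does not depend on how reads were split among them, provided each shared read was counted once. Whether that was so is not stated. The sum was 66.4, 106 and 92.3 in WT and 87.6 and 59.5 in DKO. DKO replicate 1 lay inside the WT range and DKO replicate 2 below it. Gm29094 is not part of this sum, so reads shared with it could still be missing.

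Among the BH3-only members, Bcl2l11 (Bim), a main killer of activated and antigen-selected lymphocytes, had the highest level. It measured 1527, 1782 and 2350 normalized counts across the WT libraries versus 1694 and 2358 across the DKO libraries. The 2 highest libraries, WT replicate 3 and DKO replicate 2, were of different genotypes and differed by less than 10 counts. On the log2 scale DKO differed from WT by 0.11 ± 0.25 (limma, adjusted p = 0.956), with a 95% interval that reaches from 72.9% to 159% of WT, and it was negative without WT replicate 1 (−0.03) or without DKO replicate 2 (−0.13).

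Pmaip1 (Noxa), which binds Mcl1 and A1, measured 224, 168 and 150 normalized counts across the WT libraries versus 206 and 167 across the DKO libraries. Its groups overlapped and its log2 fold change was 0.06 ± 0.31 (adjusted p = 0.978, limma). The sign was negative without WT replicate 3 (−0.07) and without DKO replicate 1 (−0.09). Bbc3 (Puma), a p53 target, was barely detected, with 10, 2 and 6 reads in the WT libraries and 6 and 2 in DKO. In normalized counts these were 10.7, 2.06 and 5.77 against 5.25 and 1.65, with overlap, and the gene was below the minimum for testing. Per unit of depth, DKO had 0.556 times the WT reads, and the 95% interval of that ratio, which covers counting error only, ran from 0.209 to 1.34.

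The effector Bax, which opens the mitochondrial outer membrane, was the member with the smallest p, and the 2 genotypes did not overlap in it. It measured 55.7, 59.8 and 50.9 normalized counts across the WT libraries versus 35.9 and 42.1 across the DKO libraries. The means were 55.5 ± 4.46 (SD, n = 3) and 39.0 ± 4.40 (n = 2), and limma gave a log2 fold change of −0.50 ± 0.44 (adjusted p = 0.891). Between 41 and 58 reads per library lay behind these values, and the DKO libraries together had 0.706 times the WT reads per unit of depth (95% interval 0.541 to 0.917 from counting alone). The fold change was negative in 17 of 17 alternative settings in which Bax was tested, from −0.63 to −0.33, and the smallest unadjusted p among them was 0.186. In that fit across genes the 95% interval, from −1.49 to 0.50, includes no change.

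Groups that do not overlap were common in this table. Both Bax and Bcl2a1b were lower in DKO in this way, 2 of 9 tested members, while 11.0% of all genes tested were lower in DKO without overlap and 23.4% were apart in either direction. With 2 of 9 apart in either direction, the members stood near that background.

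Bak1, the other effector, was far more abundant than Bax at the transcript level. It measured 1446, 1107 and 2002 normalized counts across the WT libraries versus 1205 and 1419 across the DKO libraries, with both DKO libraries inside the WT range. On the log2 scale DKO differed from WT by −0.17 ± 0.27 (limma, adjusted p = 0.932). Without WT replicate 3, the highest library, it was 0.05.

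**Figure D4:**
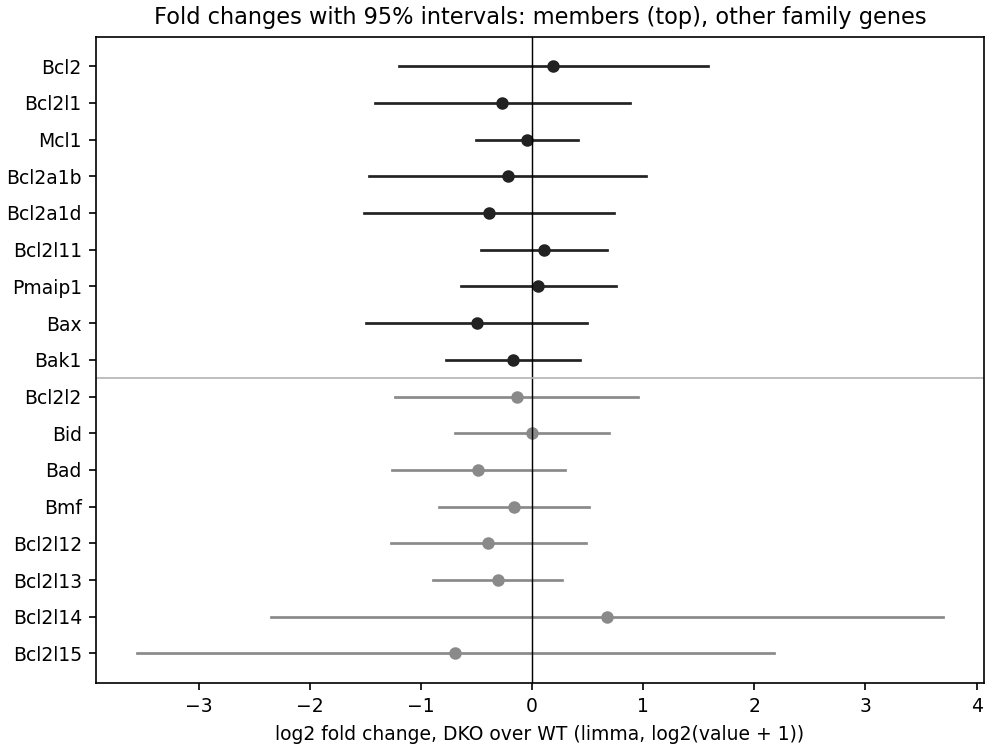
Log2 fold change of DKO over WT from limma on log2(value + 1), with 95% intervals, for the 9 tested members (black) and the 8 tested other Bcl2 family genes (grey). All intervals include 0, and that of Mcl1 is the narrowest.

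Divided by the length of all exons in GENCODE M21, levels can be set side by side between genes. Mcl1 averaged 3907 normalized counts per kilobase over the 5 libraries, Bak1 597 and Bcl2l11 242, followed by Pmaip1 (66.9), Bcl2 (60.0), Bcl2a1d (58.7), Bcl2a1b (33.9), Bax (31.0), Bcl2l1 (20.8) and Bbc3 (2.40). Of these neighbours, Pmaip1, Bcl2 and Bcl2a1d overlapped across libraries, as did Bcl2a1b, Bax and Bcl2l1. The range of Bcl2 overlapped those of both sets, and Mcl1, Bak1 and Bcl2l11 overlapped with no other member. With the length of the main transcript in place of all exons, Bcl2 (76.4) stood above Pmaip1 (67.1), Bax at 56.4 next to Bcl2a1d, and Bcl2l1 (37.1) above Bcl2a1b, while Mcl1, Bak1 (602) and Bcl2l11 (386) kept their places.

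On that per-kilobase scale, sums were taken over the 10 members only. Other family genes such as Bid, Bmf and Bad are left out, so shares and ratios are not those of the whole family. Mcl1 made up 93.7% to 96.8% of the summed survival transcripts in WT, and 95.6% and 96.6% in DKO. The Bcl2 share was 1.15%, 2.60% and 0.54% in WT and 1.92% and 1.01% in DKO. On the death side Bak1 took 58.8% to 68.5% in WT and 61.6% and 60.7% in DKO, and Bcl2l11 took 20.8% to 28.4% in WT and 26.0% and 30.2% in DKO. The survival sum over the death sum was 4.80, 5.52 and 3.07 in WT and 5.01 and 4.02 in DKO, so both DKO values lay inside the WT range. The ratio of Bcl2l11 to Bcl2 was 3.78, 1.98 and 14.5 in WT and 2.71 and 7.47 in DKO, a wide spread set mostly by Bcl2. The share of the Bcl2a1 genes is uncertain for the reason given above, and transcript levels do not measure protein, which for Mcl1 and Noxa turns over quickly.

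Of 14 other Bcl2 family genes, 8 were tested. Of these, 7 had negative log2 fold changes and 1 a positive one (median −0.23), beside 6615 negative of 13242 genes tested. None had an unadjusted p under 0.05 in limma. Bcl2l14, the 1 with a positive value, measured 73.9, 1.03 and 21.1 (WT) versus 28.9 and 18.2 (DKO), with 1 read in WT replicate 2. Its log2 fold change was 0.68 ± 1.34 in limma, −0.45 in edgeR and −0.44 in DESeq2. Bad, a BH3-only protein controlled by phosphorylation, measured 112, 156 and 112 normalized counts across the WT libraries versus 99.0 and 80.9 across the DKO libraries, without overlap, and limma gave a log2 fold change of −0.48 ± 0.35 (adjusted p = 0.877). Bcl2l12 was likewise apart, at 70.7, 84.6 and 84.6 versus 52.5 and 69.4 (−0.39 ± 0.39). Bcl2l13 measured 823, 959 and 874 across the WT libraries versus 552 and 920 across the DKO libraries, so that DKO replicate 1 was low and DKO replicate 2 was not, and without DKO replicate 1 the sign was positive (0.06). The BH3-only genes Bid and Bmf were well expressed, at 857 to 1713 and 456 to 860 over the 5 libraries, and both overlapped between genotypes. Bid, which caspase 8 cleaves to link death receptors with mitochondria, had means of 1313 ± 431 (SD, n = 3) in WT and 1277 ± 280 (n = 2) in DKO. Bcl2l15 measured 13.9, 47.5 and 1.92 (WT) versus 4.38 and 10.7 (DKO), with WT replicate 2 the highest (−0.69 ± 1.26), and positive without that library (0.27). Hrk had no reads in any library, where 3 reads would have been 2.48 to 3.21 normalized counts, and Bok, Bcl2l10, Bcl2a1c and Bik had 0 to 8 reads per library.

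Downstream of the family, the apoptosome and caspase genes had negative log2 fold changes in 12 of 13 tested and a positive one in 1 (median −0.15). Over all genes tested, 6615 of 13242 were negative (median 0.00). None of the 13 passed over all genes, and 1 had an unadjusted p under 0.05 in limma, where 6.06% of all genes did. Whether the list differed as a set was not tested. Dffa, the inhibitor that holds the apoptotic nuclease Dffb inactive, measured 1159, 1037 and 1199 normalized counts across the WT libraries versus 797 and 829 across the DKO libraries. The groups were apart, and limma gave a log2 fold change of −0.47 ± 0.20 (unadjusted p = 0.0399, adjusted p = 0.823). Apaf1, the scaffold that cytochrome c activates, was the 1 gene of this list with a higher mean in DKO: 1146, 1030 and 798 in WT and 1441 and 1263 in DKO (0.46 ± 0.23, adjusted p = 0.839, limma). Dffb measured 117, 228 and 227 (WT) versus 109 and 150 (DKO) (−0.51 ± 0.38).

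Among inhibitor of apoptosis genes and their antagonists, 3 of 7 tested had positive and 4 negative log2 fold changes (median −0.05), none passing over all genes. Birc6, a very large inhibitor of apoptosis with ubiquitin ligase activity, measured 11410, 9839 and 4941 across the WT libraries versus 14240 and 14050 across the DKO libraries, with the groups apart, and limma gave a log2 fold change of 0.78 ± 0.34 (unadjusted p = 0.0451, adjusted p = 0.823). Without WT replicate 3, the lowest library, the fold change was 0.42. Xiap, which binds and inhibits caspases, measured 2747, 2572 and 1828 (WT) versus 2610 and 1881 (DKO). Birc5 (survivin) had 1074, 724 and 865 versus 680 and 901, and the mitochondrial protease Htra2 had 245, 261 and 328 versus 249 and 259. All 3 overlapped between genotypes.

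Death receptor genes had positive log2 fold changes in 3 and negative in 4 of 7 tested (median −0.21). Tnfrsf10b, the mouse receptor for the death ligand TRAIL, measured 21.4, 1.03 and 13.5 normalized counts across the WT libraries versus 49.9 and 57.0 across the DKO libraries. Both DKO values lay well above the highest WT value, but WT replicate 2 had 1 read and the log2 fold change of 2.64 ± 1.05 did not pass in limma (adjusted p = 0.823). It was 1.59 without that library and between 2.55 and 3.33 without any other single library. Ripk1, a kinase on the path from death receptors to NF-κB, measured 577, 501 and 526 (WT) versus 426 and 373 (DKO), without overlap (−0.42 ± 0.22, adjusted p = 0.864, limma). The adaptor Tradd measured 121, 206 and 178 (WT) versus 129 and 124 (DKO). Fas, which marks germinal center B cells, had 913, 708 and 902 versus 672 and 757. Both overlapped between genotypes.

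Of 10 regulators of the family, 5 had positive and 5 negative log2 fold changes (median 0.01), and none passed over all genes. Huwe1 encodes Mule, a ubiquitin ligase that marks Mcl1 for degradation. It measured 13939, 12258 and 7201 normalized counts across the WT libraries versus 17118 and 18919 across the DKO libraries, and limma gave a log2 fold change of 0.75 ± 0.29 (unadjusted p = 0.0317, adjusted p = 0.823), and 0.46 without WT replicate 3. Fbxw7, part of another ligase that targets Mcl1, measured 2588, 2008 and 1750 (WT) versus 2625 and 2514 (DKO) (0.30 ± 0.22), with WT replicate 1 between the 2 DKO libraries. Trp53, the gene of p53, measured 4513, 3983 and 5625 across the WT libraries versus 3950 and 3884 across the DKO libraries (−0.25 ± 0.21), apart by a narrow gap. Trp73 measured 91.0, 28.9 and 11.5 (WT) versus 10.5 and 3.30 (DKO) (log2 fold change −2.21 ± 0.97, limma, adjusted p = 0.823), and WT replicate 1 alone accounted for most of the WT mean. Its log2 fold change was −1.46 without that library and −1.50 without DKO replicate 2, and reached −2.92 without DKO replicate 1.

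By the smallest root mean square difference of mean-centred log2 values over the 5 libraries, the genes most like Bax were Snrpd2 (0.03) and Pdcd2l (0.04). Snrpd2 measured 101, 111 and 96.1 normalized counts across the WT libraries versus 69.2 and 77.6 across the DKO libraries. For Bcl2a1d, the member with the second smallest p, they were B4galnt1 (0.04) and Lrrc45 (0.04). B4galnt1 measured 1756, 3333 and 2457 (WT) versus 2150 and 1621 (DKO). With 13242 genes and 5 libraries, close matches of this kind come easily.

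RefSeq (GRCm38.p6) lists 14 promoter windows for 9 of the members, each from 250 bases before to 50 after a transcription start. These were searched on both strands for GGG, any 2 bases, TT, any base and CC, letters that NF-κB motifs often hold. This spelling was chosen after the values were known. It was present in 1 window each of Bcl2l1, Mcl1, Bcl2l11 and Bbc3, 4 of 14 windows, and in 4.79% of all 32851 windows of this length. As read along the gene, the match was GGAAAAACCC in Bcl2l1 (chr2:152830668-152830967, minus strand), GGAAACGCCC in Mcl1 (chr3:95658471-95658770, plus strand) and GGGGCTTACC in Bcl2l11 (chr2:128125788-128126087, plus strand). In Bbc3 there were 2 overlapping matches, of which the first was GGGAAACCCC (chr7:16309333-16309632, plus strand). Of these genes, Bcl2l1, Mcl1 and Bcl2l11 did not pass the test between genotypes and Bbc3 was not tested, and a match is a description of letters, not a site.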

How the data were processed

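The table holds a normalized signal for 38924 genes and 5 libraries: the authors divided gene read counts by 1 scaling factor per library before it was deposited. This is seen in the values, 100% of which above 0 in each library are whole multiples of 1 step, within 0.01 of a read. CASAVA 1.8.2, TopHat2 2.0.4, Cufflinks 2.0.2 and mm9 are named per the submitters' processing notes. No source used here gives the counting tool, the gene annotation or the use of strand.

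Genes with a mean of at least 10 were tested across the whole table with limma 3.58.1 (R 4.3.3; mean-variance trend, log2(value + 1), Benjamini-Hochberg adjustment over 13242 genes, threshold 0.05). The added 1 pulls the fold changes of weakly expressed genes towards 0, although a mean of log2 values can still give a larger fold than a ratio of mean counts where 1 library is very low. Whole reads fed edgeR 4.0.16 and DESeq2 1.42.0 as alternatives. Intervals from counting are exact 95% intervals and cover counting error only. Cr2, listed in 2 rows, was summed in the marker totals. Lengths and coding sequences are from GENCODE M21 and promoters from RefSeq, another build than mm9, matched by symbol. The tests were checked on simulated data.

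The members, the lists and the alternatives were chosen with earlier results of these data known. Named genes are all members, the targeted genes and, of each list, up to 4 tested genes with the smallest p, of which 1 is not reported here; further genes of the other Bcl2 family list are named, and for the 2 members with the smallest p the 2 genes with the most similar profile.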

Additional observations from a re-analysis of the deposited data

How the results depend on the processing

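None of the 9 tested members passed an adjusted or unadjusted p of 0.05 under any of the 18 alternatives. Bbc3 was not followed in the alternatives. Bax, Bcl2a1b and Bcl2a1d kept a negative sign in each fit that tested them. With 2 DKO libraries the 95% intervals of the members reach from 70.6% to 133% of WT for Mcl1 and from 43.6% to 299% for Bcl2. Bax and Bcl2a1b, with 58 and 34 reads at most in a library, are also limited by counting. Leaving out either DKO replicate leaves 1 DKO library, which is assumed to vary like the WT libraries.

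Genes at an unadjusted p under 0.05 numbered 803 as reported, 1292 with no minimum value, 324 without both WT replicate 2 and DKO replicate 1, and 307 to 1105 with 1 library left out. Genes past the adjusted threshold numbered 0 as reported, 36 with the replicate block, 1 with the T cell covariate, 2 with library weights, 29 in DESeq2 and 0 to 1 with 1 library left out. The replicate block leaves WT replicate 3, which has no DKO partner, out of the comparison. The labels share only a number here, so the block is not taken as a paired design. Across genes the deviations of same-numbered libraries from their group means correlated at 0.00 and −0.28. With 2 DKO libraries the DKO deviations mirror each other, so WT replicate 2 with DKO replicate 1 had to give 0.28. These correlations therefore cannot tell whether libraries were paired.

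Signs of log2 fold changes turned as follows; the cause was not tested. With the replicate block the values were 0.047 for Bak1, −0.44 for Bcl2, 0.0034 for Htra2 and −0.066 for Pmaip1. Without both WT replicate 2 and DKO replicate 1 they were 0.58 for Bcl2l1, 0.12 for Bcl2l13, 0.83 for Bcl2l15 and −0.13 for Pmaip1. Quantile scaling gave 0.0055 for Mcl1, and Bcl2 was at −0.068 in edgeR and −0.059 in DESeq2. Bcl2l14, not followed in the other alternatives, was at −0.45 in edgeR and −0.44 in DESeq2. With 1 library left out the range was −0.38 to 0.047 for Bak1, −0.44 to 0.80 for Bcl2, −0.73 to 0.20 for Bcl2l1, −0.13 to 0.35 for Bcl2l11, −0.68 to 0.059 for Bcl2l13, −1.76 to 0.27 for Bcl2l15, −0.37 to 0.040 for Birc5, −0.21 to 0.0034 for Htra2, −0.11 to 0.0085 for Mcl1, −0.093 to 0.22 for Pmaip1 and −0.32 to 0.15 for Xiap.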
